A study of Caenorhabditis elegans with 2 samples.

Results

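Calcium enters nematode muscle and nerve cells through voltage-gated channels, and the proteins that carry, store, release and sense it turn an electrical signal into contraction or transmitter release. The 10 genes described here encode these proteins in Caenorhabditis elegans: the channel pore subunits EGL-19, UNC-2 and CCA-1, the accessory subunits UNC-36 and CCB-1, the calcium store proteins UNC-68, ITR-1 and SCA-1, and calmodulin (CMD-1) with its target kinase UNC-43. They were taken by name from the Ensembl annotation of the WBcel235 assembly, and are 10 of 19973 protein-coding genes. For each gene, LIN-14 peaks with a summit from 5 kb upstream to 1 kb downstream were collected, which gave 55 of the 11507 peaks (0.478%) in the list kept for agreement between replicates by an irreproducible discovery rate (IDR) threshold. All 10 genes had at least 1 peak.

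The samples were whole L1 larvae, aged 6 hours and of both sexes, in 1 group with 2 biological replicates and no second condition. The strain, OP768, is an unc-119(tm4063) mutant that carries the insertion wgls768, with lin-14 fused to TY1, EGFP and 3xFLAG tags beside a functional unc-119 copy. LIN-14, a nuclear regulator of developmental timing in early larvae, was precipitated with an antibody against GFP and the bound DNA was sequenced (ChIP-seq). The tagged protein came from this insertion, and no source used here gives its amount beside the native protein. Per the labels the larvae had been synchronised by starvation after bleaching, and no source used here says whether they were fed afterwards. The animals were pooled whole, so a peak does not show in which tissue the protein was bound, and a peak near a gene does not show that the gene responds to it.

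In the nematode, EGL-19 is the L-type channel of muscle, UNC-2 is the presynaptic channel of neurons and CCA-1 is the T-type channel. UNC-36 is the alpha2/delta subunit and CCB-1 the beta subunit that accompany such pores. UNC-68 is the ryanodine receptor and ITR-1 the inositol trisphosphate receptor, which release calcium from internal stores, and SCA-1 is the SERCA pump that refills them. CMD-1 binds calcium and passes the signal to enzymes such as UNC-43, the calcium/calmodulin-dependent kinase II.

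The following sequences span the strongest summit and 50 bp to either side of it, for each gene whose strongest score exceeded 1000, other than ccb-1. Each is shown as the site where the score of its gene was highest. The strongest site of ccb-1, which scored 1789, also passed that mark, and its sequence is not printed here. Each printed sequence is the plus strand of WBcel235 (ce11), 5′ to 3′, from the RefSeq copy of the genome, and capitals mark GAGAGA or its reverse complement, the sequence whose share among peaks stood farthest from its share in the genome among those looked for. Of the 6 genes past the mark, 4 had a match at their strongest summit (egl-19, unc-36, unc-43 and sca-1) and 2 had none (cmd-1 and ccb-1).
cmd-1, chrV:1151481-1151581: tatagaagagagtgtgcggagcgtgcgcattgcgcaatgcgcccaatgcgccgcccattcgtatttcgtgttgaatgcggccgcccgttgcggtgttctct
egl-19, chrIV:7402183-7402283: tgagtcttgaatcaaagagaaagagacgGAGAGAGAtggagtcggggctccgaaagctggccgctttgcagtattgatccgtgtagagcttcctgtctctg
unc-36, chrIII:8201836-8201936: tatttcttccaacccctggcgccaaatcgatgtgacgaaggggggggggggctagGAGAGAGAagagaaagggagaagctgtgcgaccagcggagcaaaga
unc-43, chrIV:10346132-10346232: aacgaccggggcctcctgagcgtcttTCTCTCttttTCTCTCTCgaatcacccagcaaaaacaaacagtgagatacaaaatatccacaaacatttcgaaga
sca-1, chrIII:10816166-10816266: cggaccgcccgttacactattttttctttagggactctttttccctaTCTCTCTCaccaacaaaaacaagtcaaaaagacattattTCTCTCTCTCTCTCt

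All 10 genes had a peak in the window, against 45.1% of all protein-coding genes. The window grows with the gene, and the shortest of the 10 windows, at cmd-1, is 7919 bp. Among the 10546 protein-coding genes with a window at least that long, 52.5% had a peak. This sets only a lower limit and does not match gene length, since the windows of the 10 genes reach 58.6 kb, at unc-2. A narrower promoter window, reaching 1000 bp before and 200 bp past the 5′ end of any annotated transcript, held a peak at 7 of the 10 genes, against 23.0% of all protein-coding genes and 28.5% of those with a long window. The genes without one were cca-1, ccb-1 and unc-68. This window too grows, with the number of distinct 5′ ends, which was 20 at unc-43. A peak among the strongest 10% of the list, a mark set after the values were seen, lay in the window of 4 genes, cmd-1, egl-19, ccb-1 and unc-36, against 9.71% of all protein-coding genes and 12.0% of those with a long window. These shares are descriptions, and no test was made of them.

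As a group the 10 genes had many peaks, mostly of ordinary strength, but the count ran from 1 at unc-36 and 2 at unc-68 to 14 at unc-43. The median was 5 peaks per gene, against a median of 0 for all protein-coding genes and 1 for those with a long window. Scaled to window length, the median was 2.04 peaks per 10 kb, against 0.715 for genes with a long window. The score of a peak is the authors' own measure of its strength, and no source used here gives its scale. The median score of the 55 peaks was 345.0, beside 358.7 for the whole list, and 29 of the 55 lay below the median of the list. The strongest peak of each gene had a median score of 1104 over the 10 genes, against 663.4 over the long-window genes that have a peak. The highest of many peaks tends to exceed the highest of few, and the number of peaks was not matched here. Of the 55 peaks, 20 (36.4%) were exactly 410 bp wide, beside 32.7% of the list. These had a median score of 198.0, and the other peaks one of 551.6.

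**Figure D1:**
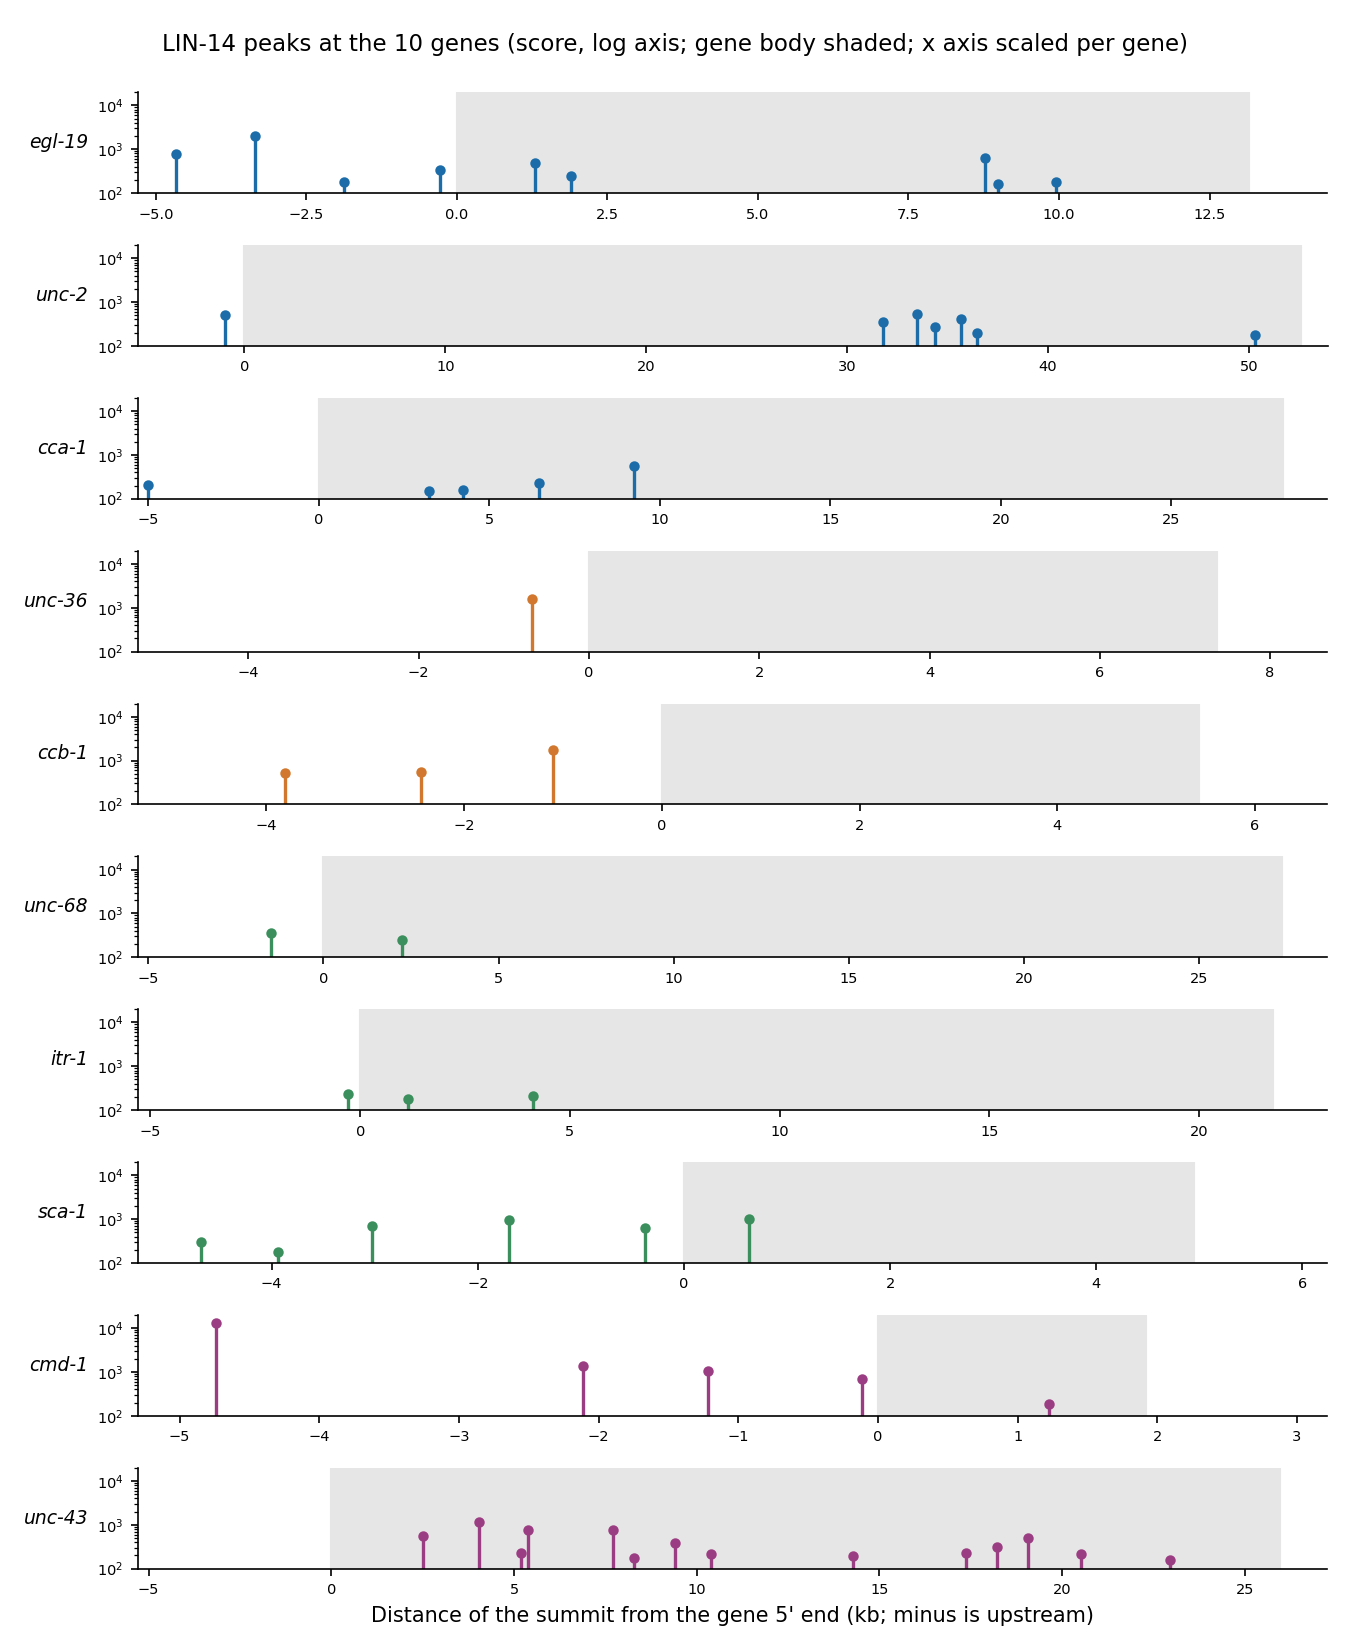
LIN-14 peaks at each of the 10 genes, with the distance of the summit from the gene 5′ end in kb on the x axis (scaled per gene, minus is upstream) and the peak score on a log axis; shading is the gene body and each line is 1 peak. The peaks of unc-36 and ccb-1 all lie upstream, those of unc-43 all lie inside the gene, and the tallest, 13288, lies 4740 bp upstream of cmd-1.

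Of the 55 summits, 21 lay upstream of a gene and 34 (61.8%) inside one, and none lay in the 1 kb downstream. These counts, and those by role below, were not scaled to length. The upstream part is 5 kb at every gene, whereas the gene bodies run from 1.92 kb at cmd-1 to 52.6 kb at unc-2. No share by location was taken over the whole list, so the counts show no preference for gene bodies. Inside the genes, 30 were in introns, 3 in exon sequence outside the coding part and 1 in a coding exon. By role, the 3 pore subunit genes had 15 of 21 peaks inside, and the calmodulin and kinase genes had 15 of 19, of which 14 belonged to unc-43. The store genes had 4 of 11 inside, and the accessory subunit genes had 0 of 4.

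At egl-19 (chromosome IV, 7405582 to 7418740, plus strand), 9 peaks were found, 4 upstream and 5 in introns. The strongest, with its summit at 7402233 and 3349 bp upstream, had a score of 1971 and rank 459 in the list, with 1128 in replicate 1 and 851 in replicate 2. The next, 4669 bp upstream, had 795.9 (replicates 458 and 342). Its summit lay inside the non-coding genes C48A7.14 and C48A7.15, so that it cannot be assigned to egl-19 alone. The strongest was 2.48 times the next, and both lay beyond the promoter window. Within that window of the longest transcripts, 277 bp upstream, the score was 336.6 (replicates 174 and 164). The nearest coding 5′ end to that summit, and to the other upstream summits, belonged to C48A7.16, a coding model of 30 bp on the same strand that begins 105 bp before egl-19. Of the intronic peaks, the strongest was 8776 bp inside at 643.0 (replicates 327 and 321), 1853 bp upstream of the 5′ end of a short transcript, and a weak peak of 179.1 lay 675 bp upstream of that same 5′ end. The other 4 peaks of this gene had scores from 160.7 to 481.5. Among them, the summit 1875 bp upstream lay inside the non-coding genes C48A7.5 and C48A7.13, and that 1897 bp inside lay within C48A7.7.

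At unc-2 (chromosome X, 2710920 to 2763526, minus strand), the longest of the genes at 52.6 kb, 7 peaks were found. Of these, 5 formed a group in introns from 31.8 to 36.5 kb inside the gene, a stretch of 4.68 kb. The strongest of the group, 33458 bp inside, had 526.7 (replicates 292 and 226), and the peak 954 bp upstream of the gene had 494.6 (replicates 259 and 231). Their order changed between the replicates, so that they could not be ranked. Next came the peak 35653 bp inside, with 405.6 (replicates 217 and 182). The remaining 4 ranged from 178.8 to 345.0, the highest of them 297 bp upstream of an internal transcript start. With 1.19 peaks per 10 kb, unc-2 stood at percentile 64.4 of all protein-coding genes and at percentile 50.8 of those on chromosome X, where the median gene had 1.18. Its count was thus high, at percentile 99.0, and its density close to the median of its chromosome. In the percentiles of count and density given here, genes without a peak count as lowest. By count, unc-36 with its 1 peak already stood at percentile 54.9 of all protein-coding genes.

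At cca-1 (chromosome X, 7847678 to 7875954, minus strand), 5 peaks were found and none fell in the promoter window. The strongest was in an intron, 9258 bp inside, with 555.3 (replicates 311 and 241), 2.38 times the next. The other 3 intronic peaks had scores from 148.4 to 233.1, where the lowest score of the list was 147.5. The summit of the weakest, 3225 bp inside, also lay within the non-coding gene EGAP3.1. The upstream peak, 4998 bp from the gene and thus just inside the window, had 206.5 (replicates 112 and 93.8), and its summit lay 4 bp from the 5′ end of the neighbouring gene C39D10.8. The density was at percentile 60.3 of chromosome X. Among the 11507 highest scoring peaks of replicate 1 alone, 3 fell in this window, against 6 among those of replicate 2.

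The accessory subunit genes had few peaks, all of them upstream. At unc-36 (chromosome III, 8193843 to 8201217, minus strand), the only peak lay 669 bp upstream, at 8201684 to 8202117, with 1592 and rank 710 (replicates 872 and 721). Its summit was inside C50C3.15, an annotated non-coding RNA gene of 355 bp on the opposite strand, so that the peak cannot be assigned to either gene. At ccb-1 (chromosome I, 3641651 to 3647082, minus strand), the strongest of 3 peaks lay 1100 bp upstream, 100 bp beyond the edge of the promoter window, with 1789 and rank 559 (replicates 974 and 827). The others lay 2440 bp upstream with 551.6 (replicates 281 and 274) and 3811 bp upstream with 511.1 (replicates 268 and 237). The second of these was nearer to the 5′ end of the collagen gene col-50, at 1711 bp. Its summit lay 343 bp past the 3′ end of col-50, so that it cannot be assigned to either gene. The median score of the 4 peaks was 1072, the highest of the 4 role groups, which had medians from 276.6 to 374.3 otherwise.

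Among the store genes the SERCA pump gene stood above both release channels. At sca-1 (chromosome III, 10811906 to 10816850, minus strand), 6 peaks were found in 10.9 kb. The strongest, in an intron 634 bp inside and 308 bp upstream of the 5′ end of a shorter transcript, had 1024 (replicates 579 and 445). The peak 1694 bp upstream had 933.3 (replicates 542 and 388). Those at 3027 and 380 bp upstream had 702.5 and 635.8 (replicates 419 and 290, and 345 and 289). The peaks 4686 and 3937 bp upstream were weaker, at 297.9 and 179.0. Of the upstream summits, 3 (933.3, 702.5 and 179.0) lay inside linc-129, a long non-coding RNA gene that runs away from sca-1. The summit of 702.5 also lay inside the non-coding gene K11D9.8. These 3 peaks cannot be assigned to sca-1 alone. The summit 380 bp from sca-1 was 33 bp from the 5′ end of linc-129, so that it lies between both starts and cannot be assigned to either.

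By their strongest peak, the release channel genes scored lowest of the 10. The median over all peaks of a gene was instead lowest at cca-1 (206.5), followed by itr-1 (214.1), unc-43 (271.9) and unc-68 (301.4). At unc-68 (chromosome V, 6901681 to 6929038, minus strand), a peak 1486 bp upstream had 351.0 and was matched in replicate 1 (196) but not in replicate 2, where the nearest summit was 1044 bp away. The other, in an intron 2249 bp inside, had 251.7 (replicates 134 and 115). Both summits were beyond the promoter window. Among the 11507 highest scoring peaks of replicate 2 alone, 1 peak fell in the window of unc-68, against 2 among those of replicate 1. At itr-1 (chromosome IV, 7675174 to 7696930, plus strand), the 3 peaks were 296 bp upstream (237.6, replicates 137 and 102), 1129 bp inside (182.2, replicates 76.9 and 99.9) and 4129 bp inside (214.1, replicates 109 and 105). Their order differed between the replicates. In the lowest scoring of the 3, replicate 2 was the higher. The summit 4129 bp inside also lay within the non-coding gene C08G9.9.

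At cmd-1 (chromosome V, 1156271 to 1158189, plus strand), the calmodulin gene, the peak of highest score in the list fell inside the window. This peak, at 1151248 to 1152249 and 1002 bp wide, had 13288 and was first in the list, first in replicate 1 (7583) and first in replicate 2 (5757). It was 1.65 times the second peak of the whole list, 8057. Its summit, at 1151531, lay 4740 bp upstream of cmd-1 and 625 bp inside linc-128, a long non-coding RNA gene of 2302 bp on the same strand. It was 260 bp inside the 5 kb limit, so its place among the peaks of cmd-1 rests on the width of the window. The summit is nearer to the 5′ end of linc-128 than to that of cmd-1, so that the peak cannot be assigned to either gene. The flanking coding genes lie farther, with the 5′ end of cutl-22 at 9798 bp and that of T21H3.5 at 12762 bp. The 3′ end of cutl-22 is 5030 bp from the summit. All 967 of its 36-base words occurred once in the genome.

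The other peaks of cmd-1 formed a series toward the gene start. At 2114 bp upstream the score was 1364 and rank 939 (replicates 762 and 609), at 1214 bp it was 1074 (replicates 584 and 539), and at 111 bp, in the promoter window, it was 706.7 (replicates 432 and 262). In the last of these replicate 1 exceeded replicate 2 by 0.72 on the log2 scale, against a median of 0.35 for all matched peaks. A weak peak of 185.9 (replicates 90.1 and 89.4) lay 1228 bp inside, and 30 of its 375 words of 36 bases occurred elsewhere in the genome. The peak at 2114 bp had 2 such words of 362, and no other of the 55 peaks had any. The strongest peak was 9.74 times the next at this gene, 9.95 times in replicate 1 and 9.45 times in replicate 2. With 6.31 peaks per 10 kb, cmd-1 stood at percentile 99.3 of all protein-coding genes, above sca-1 at 98.4, egl-19 at 97.1 and unc-43 at 96.2.

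At unc-43 (chromosome IV, 10324254 to 10350217, minus strand), 14 peaks were found, the most of the 10 genes and a count at percentile 99.9 of all protein-coding genes. All 14 lay inside the gene, 11 in introns, and 6 were within the promoter window of at least 1 of its 25 annotated transcripts, which have 20 distinct 5′ ends. The strongest, 4035 bp inside, had 1183 and rank 1205 (replicates 696 and 480). The peaks at 5390 and 7704 bp inside had 761.7 (replicates 430 and 340) and 748.0 (replicates 404 and 339). The one nearest to the start of the gene, 2497 bp inside, had 562.2 (replicates 288 and 272). Of the 5 peaks with scores over 500, 4 lay in the first 8 kb of the gene. The fifth, 19056 bp inside, was 13 bp from an internal transcript start, with 505.5 (replicates 293 and 217). The remaining 9 ranged from 155.3 to 374.3. The peaks at 7704 and 8275 bp share 1 interval of 1138 bp in the deposited list, with separate summits.

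**Figure D2:**
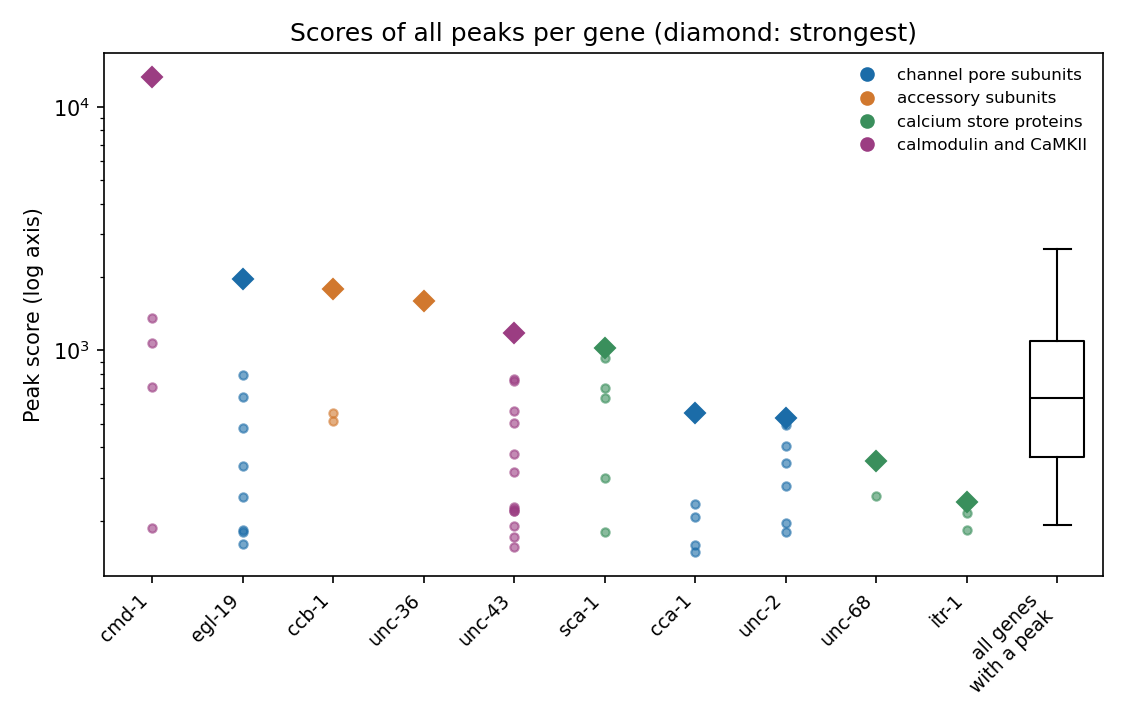
Scores of all 55 peaks by gene on a log axis, ordered by the strongest peak (diamond) and coloured by role; the box holds the strongest peak of every protein-coding gene that has one (quartiles and median, whiskers at percentiles 5 and 95). The strongest peak of cmd-1, at 13288, is far above the others. Those of cca-1 (555.3), unc-2 (526.7), unc-68 (351.0) and itr-1 (237.6) lie below the median of the box, 638.4.

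By the strongest peak the genes ran cmd-1, egl-19, ccb-1, unc-36, unc-43, sca-1, cca-1, unc-2, unc-68 and itr-1. The first places rest on the width of the window. From 2 kb upstream to 500 bp downstream, an alternative chosen after seeing the data, the strongest peak of cmd-1 was 1074 in place of 13288 and that of egl-19 643.0 in place of 1971. The order there began with ccb-1, unc-36 and unc-43, with cmd-1 in place 4 and egl-19 in place 6, and the scores of the other 8 genes were as before. In the 5 kb window, the order was the same in both replicate lists when each gene was given its own strongest peak there. The gap between neighbours was compared with 0.41, the SD over all matched peaks of the log2 ratio of replicate 1 to replicate 2. The gap from cmd-1 to egl-19 was 2.75 on the log2 scale in replicate 1 and 2.76 in replicate 2, and that from sca-1 to cca-1 was 0.90 and 0.88. That from unc-2 to unc-68 was 0.58 and 1.01, with different strongest sites of both genes in replicate 2. These 3 gaps exceeded the SD in both replicates, and 2 others did so in 1 replicate only. In 4 of the 9 steps (egl-19 to ccb-1, ccb-1 to unc-36, unc-43 to sca-1, and cca-1 to unc-2) the gap was under the SD in both replicates. For egl-19 and ccb-1 it was 0.21 and 0.04, and those neighbours did not differ beyond the spread.

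The replicates agreed on most of these sites. Of the 55 peaks, 50 had a summit within 100 bp in the replicate 1 list, 54 in the replicate 2 list and 49 in both, or 89.1%, beside 96.6% of the whole list. Among the 11507 highest scoring peaks of replicate 1, 46 (83.6%) were matched, beside 92.6% of the whole list, and among those of replicate 2, 48 (87.3%), beside 89.7%. These shares were thus lower for the 55 peaks than for the list, and the differences were not tested. All 55 were in the pooled list with the same summit and score. The IDR-thresholded peaks are the highest scoring of the pooled list, which rests on the reads of both replicates, so the match is a description and no independent measure. The 6 peaks without a match in one list were at egl-19 (160.7 and 179.1), unc-2 (178.8), unc-68 (351.0) and unc-43 (171.6 and 219.1), and all but the unc-68 peak were missing from replicate 1. At 3 of the 5 missing there, a replicate 1 peak overlapped but had its summit farther than 100 bp away.

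**Figure D3:**
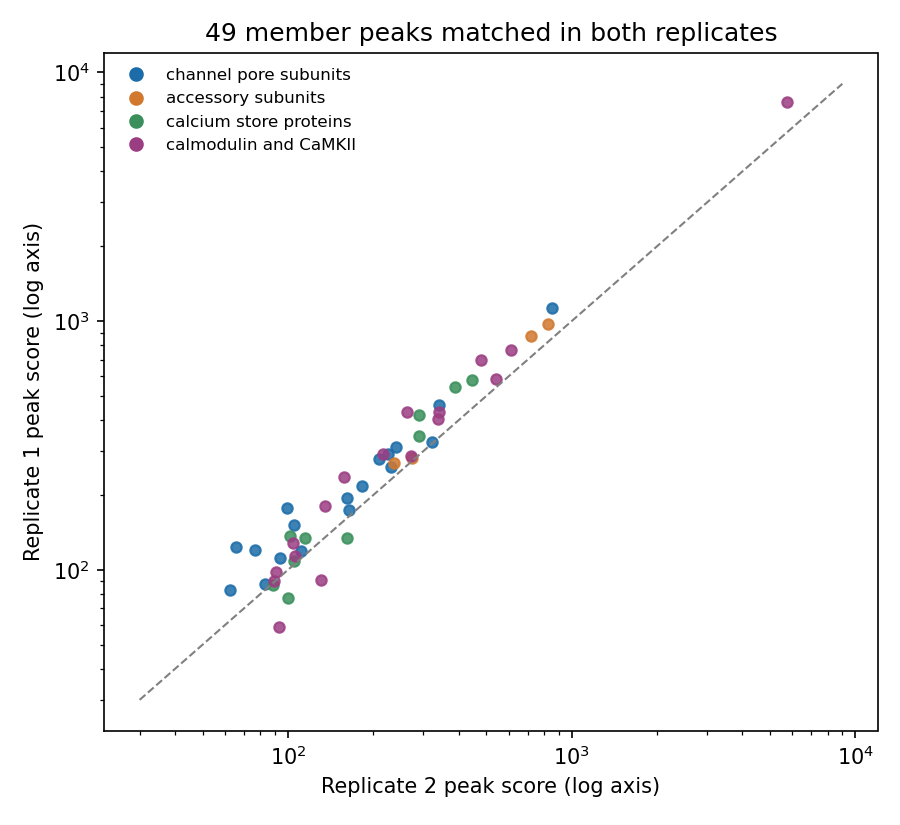
Scores of the 49 peaks matched in both replicates, replicate 2 on the x axis and replicate 1 on the y axis, both on log axes, with the line of equal scores dashed and points coloured by role. Replicate 1 is the higher in 44 of the 49, and the cmd-1 peak stands alone at the upper right.

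Across the 49 matched peaks the log2 ratio of replicate 1 to replicate 2 had a median of 0.28 and an SD of 0.30, with a range from -0.65 to 0.93. The whole list had 0.35 and 0.41, and replicate 1 was the higher in 44 of the 49. The 6 peaks more than 0.41 from the median of the list were all weaker than the strongest peak of their gene. The lowest ratio was at unc-43, 22944 bp inside (replicates 59.0 and 92.9), and the highest at egl-19, 1875 bp upstream (replicates 124 and 65.4).

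**Figure D4:**
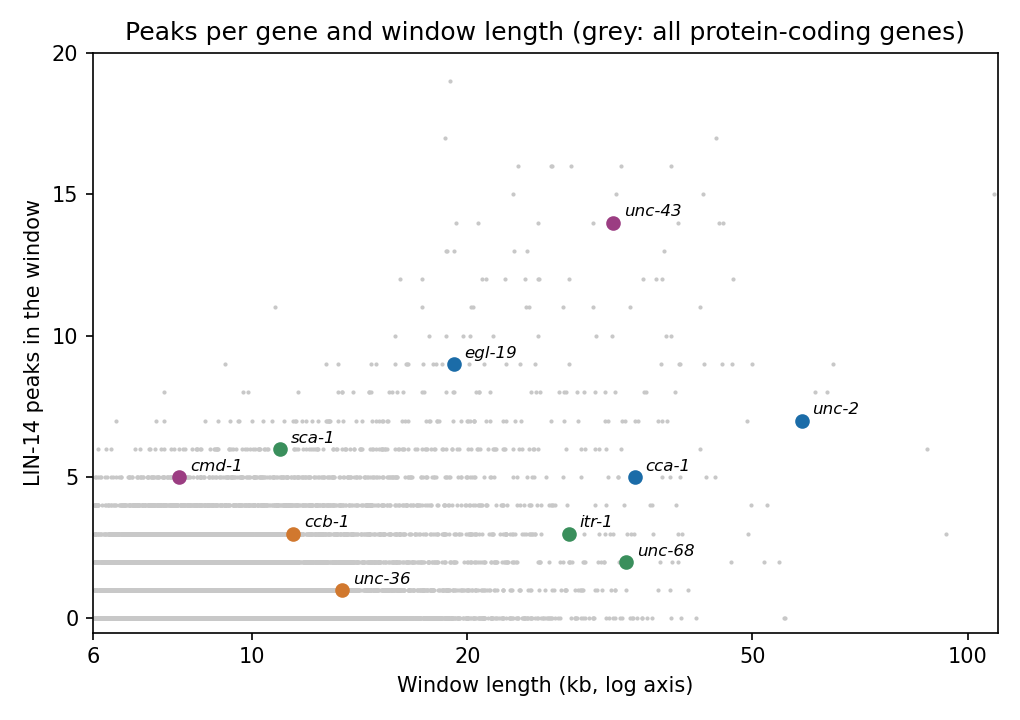
Number of LIN-14 peaks in the window of each protein-coding gene (grey) and of the 10 genes (coloured by role, as in the plot of scores by gene), against window length in kb on a log axis; 1 gene lies outside the axes. At a like window length unc-43 has 14 peaks and unc-68 has 2, while cmd-1 has 5 in the shortest window of the 10.

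Window length alone did not order the genes. The windows of cca-1, unc-68 and unc-43 were 34.3, 33.4 and 32.0 kb long and held 5, 2 and 14 peaks. In density, unc-68 with 0.600 and unc-36 with 0.748 peaks per 10 kb were close to the median of long-window genes, 0.715. Below the threshold of the list the pooled list held another 57 peaks in these windows, with scores from 33.5 to 140, 12 of them at cca-1 and 10 at unc-2.

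Of the sequences looked for on both strands within 50 bp of the summits, GAGAGA was the one whose share at these peaks lay farthest above its share in the genome. It was found at 17 of the 55 peaks (30.9%), at 26.4% of all peaks of the list and in 5.18% of 992797 windows of the same length laid end to end along the genome. In the list it was found in 41.5% of the strongest 10% of peaks and in 24.7% of the rest. The 17 peaks belonged to 9 of the 10 genes, the exception being unc-68. Their median score was 551.6, and that of the other peaks of these genes was 287.2. The strongest peaks of egl-19, unc-36, unc-43 and sca-1 held it, as printed, whereas those of cmd-1 and ccb-1 did not.

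The other sequences were as frequent at these peaks as in the genome, or less so. The sequence CGGAA, in which the first letter may also be T and the last may also be G, was present at 26 of the 55 peaks (47.3%), at 56.9% of the list and in 58.1% of genome windows. Its form that ends in GAG can share 3 letters with GAGAGA. The sequence GAACAC, in which the last letter may also be T and the one before it may also be G, was present at 7 (12.7%), against 12.6% and 14.5%, among them the strongest peak of cmd-1. TGATAA was present at 4 (7.27%), against 8.59% and 9.35%. CACGTG was at 0 of the 55, against 4.81% of the list and 1.67% of genome windows. The GC content within 50 bp of the summits averaged 44.0% at these genes and 43.6% over the list. These matches describe the letters in the windows, were not tested, and do not show what protein reads them.

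Most other calcium and excitation genes also had LIN-14 peaks. A list of 66 such genes, sorted by role and chosen with earlier results of these data known, gave 64 that matched the annotation by name. The genes nca-1, of the NALCN sodium leak channel complex, and cal-6, of the calmodulin-like proteins, were not matched and not analysed here. Of these, 55 (85.9%) had a peak from 5 kb upstream to 1 kb downstream, against 45.1% of all protein-coding genes, and 34 (53.1%) had one in the promoter window, against 23.0%. Of the 55 listed genes with a long window, 48 had a peak, against 52.5% of such genes. The median of their highest scores was 646.3, close to the 638.4 of all protein-coding genes with a peak. No test was made, and a peak in the window of a listed gene may lie nearer to another gene.

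The listed gene with the highest score was cal-7, which encodes a calmodulin-like protein, at 4417 and rank 47 (replicates 2398 and 2029). Its summit lay 2890 bp upstream of cal-7 but 157 bp from the 5′ end of drap-1, so that it cannot be assigned to cal-7. The mitochondrial gene letm-1 had 3183 (replicates 1765 and 1420), 2464 bp upstream. The calreticulin gene crt-1, whose protein binds calcium in the endoplasmic reticulum, had 2781 (replicates 1528 and 1289), 279 bp upstream. Each of these scores was above every peak of the 10 genes other than the first peak of cmd-1.

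The next listed genes had scores between 1792 and 2207, around those of egl-19 and ccb-1. The junctophilin gene jph-1, whose protein ties the store membrane to the cell surface, had 2207 (replicates 1268 and 948), 3324 bp upstream. The plasma membrane pump gene mca-3 had 2111 (replicates 1146 and 965), 2040 bp upstream. Of the calmodulin effectors, the kinase gene cmk-1 had 1913 (replicates 1029 and 904), 181 bp upstream, and the calcineurin subunit gene cnb-1 had 1848 (replicates 1033 and 830), 398 bp upstream. The calmodulin-like gene cal-1 had 1792 (replicates 976 and 825), 1680 bp upstream.

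The counts by role stand beside 45.1% of all protein-coding genes and 52.5% of those with a long window. Each role holds only 2 to 10 matched genes, gene length was not matched, and no role was tested. All 7 phospholipase C and inositol phosphate genes had a peak, as did all 7 genes listed under calcineurin and calmodulin kinases. So did all 6 genes of calcium-activated potassium channels and all 4 matched genes of the NALCN sodium leak channel complex. A peak was also present at all genes listed under reticulum proteins (4), plasma membrane pumps (3), mitochondrial calcium (3) and the other accessory subunits (2). The matched genes of calmodulin-like proteins and the neuronal calcium sensors had 6 of 7 each. The sodium/calcium exchangers had 5 of 10, with ncx-6 and ncx-7 sharing 1 peak. The 9 listed genes without a peak were ncx-1, ncx-5, ncx-8, ncx-9, ncx-10, the store sensor gene stim-1, cal-8, ncs-1 and tnc-2.

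**Figure D5:**
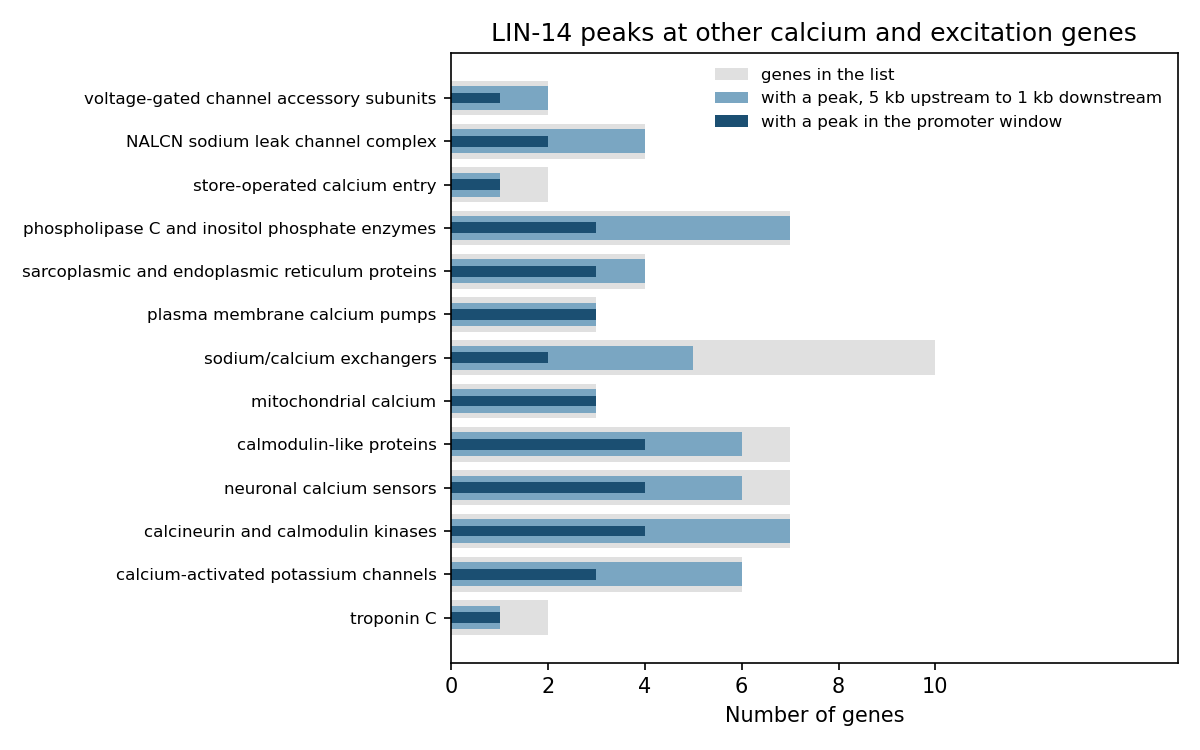
Number of other calcium and excitation genes on the x axis, by role: all genes in each list (light), those with a LIN-14 peak from 5 kb upstream to 1 kb downstream (blue) and those with a peak in the promoter window (dark). The exchangers had a peak at 5 of 10 genes, store-operated entry and troponin C at 1 of 2 each, and the plasma membrane pumps and mitochondrial genes had a promoter peak at all 3 genes each. Of all protein-coding genes, 45.1% had a peak in the wider window and 23.0% in the promoter window.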

How the data were processed

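Chromatin bound by tagged LIN-14 was sequenced from 2 biological replicates of L1 larvae. Per the labels the build is ce11, and the README texts deposited with the samples say that peaks were called on each replicate and on both together (pooled), each time against a control, and that the IDR-thresholded list came from those 3 lists. No source used here names the caller, the aligner, a software version or the IDR threshold. The score of each deposited peak is the strength the authors' caller gave it, and no step was applied to it here other than ranking, ratios and log2. A −log10 q-value per deposited peak was not used. The authors give each summit as an offset in bp from the peak start. The lists hold 25357 (replicate 1), 27170 (replicate 2), 24683 (pooled) and 11507 (IDR-thresholded) peaks. Read depth is unknown, so no interval is given, and the control experiment was not analysed here.

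Gene models came from Ensembl release 115 for WBcel235 and sequence from the RefSeq copy of that assembly, and every deposited peak lay within its chromosome lengths. A summit was assigned to a gene from 5 kb upstream to 1 kb downstream, and neighbouring genes can share it. Summits within 100 bp were matched between lists. Motifs were searched on both strands within 50 bp of the summit. Positions count from 1. With 1 group no test was made, and counts are given beside the share of all protein-coding genes. Window assignment, matching and merging were tested on simulated data. Python 3.11.15, numpy 2.4.6, pandas 2.3.3 and matplotlib 3.10.9 were used.

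The members and lists were chosen with earlier results of these data known. All 10 genes are named with their strongest peaks, and of the 64 matched calcium and excitation genes the 8 with the highest scores. The 9 listed genes without a peak, and ncx-6 and ncx-7, were named beyond that rule after their values were seen. Alternatives covered the replicate lists, the score threshold, both windows, assignment by the nearest 5′ end, merging, matching distance and motif window.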

Additional observations from a re-analysis of the deposited data

How the results depend on the processing

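All 10 genes kept a peak in the window when it was narrowed to 2 kb upstream and 500 bp downstream (45 peaks). The share of all protein-coding genes with a peak there was 33.8%. All 10 also kept a peak when a summit outside the gene counted only if the nearest protein-coding 5′ end belonged to that gene (49 peaks). Summits inside the gene were kept there, those inside another protein-coding gene were dropped, and non-coding genes were left aside. The pooled list used whole gave 112 peaks at all 10 genes (share 51.5%). With the stronger 50% of the list 26 peaks remained at 8 genes, without unc-68 and itr-1 (share 34.2%), and inside gene bodies 34 peaks remained at 8 genes, without unc-36 and ccb-1 (share 10.7%). Merging overlapping peaks left 52. The top peaks of a single replicate gave 52 to 53 peaks, 10 genes with a peak and 7 with a promoter peak in either case. The median over the 10 genes of the percentile of the strongest score was 88.7 among all protein-coding genes. Genes without a peak count there as lowest, and only 45.1% have a peak, so any peak alone gives a high percentile. Thus itr-1, with the lowest strongest score of the 10, stood at 59.7. The median was 87.7 to 89.2 with a single replicate and 88.4 in the 2 kb window, an alternative added after seeing the data. Genes with a promoter peak numbered 6 with 500 bp upstream and 100 bp downstream (share 17.7%), 9 with 2 kb and 500 bp (29.7%), 5 in the stronger 50% (15.4%) and 10 in the pooled list (31.7%). Matches numbered 45 to 50 in replicate 1 and 46 to 54 in replicate 2 over all matching rules. Within 100 bp of the summits the first sequence set was at 43 peaks (81.2% of the list), GAGAGA at 28 (40.7%), CACGTG at 3 (7.40%) and TGATAA at 9 (16.1%), where the longer window holds more letters. For the other calcium and excitation genes, alternatives were added after seeing the data, and 42 genes had a peak in the stronger 50% (share 34.2%), 51 in the 2 kb window (33.8%), 56 in replicate 1 alone (46.1%) and 55 in replicate 2 alone (47.1%). Of 80 recomputed peak counts of single genes, 55 were within 1.5 times of the first value, and 18 of the other 25 were lower. No paired analysis was possible because the study has 1 group and no comparison between groups. The files hold no reads, so the depth behind weak peaks such as those of itr-1 is unknown.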
